A study of Mus musculus with 2 samples.

Results

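The ATP-binding cassette (ABC) genes encode proteins that use ATP to carry drugs, conjugates, lipids, metals and vitamins across membranes, together with a few relatives that act in translation. They were taken as the genes of the arrays whose symbol begins with Abc, a subfamily letter from a to g and a digit, which gave 48 of 19505 genes. RNA of preparations labelled as PT cells, of KAT5 KO mice and of wild-type mice, was hybridised to Clariom S arrays, with 1 array for each genotype. The KAT5 KO mice carried γGT-Cre and KAT5 flox/flox alleles on a C57BL/6J background. Per the paper, γGT is active along the PT from segment S1 to S3, and intensely in S3. The wild-type mice are described by the labels only as such. Mice of both genotypes were 8 weeks old and labelled male, and neither received an injury or a treatment, although the descriptions of both samples also speak of embryos. PT cells had been selected with an antibody to Prominin1 after depletion of cells bearing CD31, and the number of mice behind each array is not given in the sources used here. With 1 array for each genotype there was no spread between animals and no test was possible, so each difference below is a description of these arrays.

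PT cells move organic anions, drugs and their conjugates from blood to urine. Carriers on the blood side bring them into the cell, and ABC pumps in the brush border, chiefly of the C, B and G subfamilies, drive them out into the lumen. Other ABC proteins sit on the basolateral membrane and return conjugates to blood, export phospholipids and sterols (mostly A and G), or serve the mitochondria, the peroxisomes and the lysosomes (B and D).

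Levels are log2 values made by the authors with RMA, and a difference is KAT5 KO minus wild-type on that scale. The background level was 5.14, which 95% of odorant, pheromone and taste receptor genes did not exceed on the wild-type array, and any level under it was raised to it. A gene counted as measured when it exceeded this level on at least 1 array, and as higher or lower when the arrays lay 2-fold or more apart. Kat5 itself stood at 10.20 in wild-type mice and 8.67 in KAT5 KO mice, which is 34.8% of wild-type. Whether its probes lie in the deleted part was not examined. The Y-linked genes Uty, Eif2s3y and Kdm5d stood at 9.84, 10.11 and 7.69 on the wild-type array but none of the 3 exceeded the background level in KAT5 KO mice, at odds with the male label of that sample. Of 20 PT markers, 19 had a probe set here and all 19 were higher in KAT5 KO mice, by 3.51 to 9.95 (median 7.05). Of all measured genes, 17.8% were higher. The summed linear level of the 19 markers was at least 83.6-fold higher. This is a lower bound because Slc34a1 reached the highest value of the table (19.93) in KAT5 KO mice. Both arrays carried clear signal of other cells although both samples are labelled as PT cells. On the wild-type array Umod and Slc12a1 of the loop of Henle stood at 19.93 and 17.55 and the leukocyte gene Ptprc at 17.68. On the KAT5 KO array they stood at 15.65, 12.99 and 15.48. The PT genes Slc22a6, Hnf4a and Cubn stood at 5.21, 7.87 and 9.37 in wild-type mice. In KAT5 KO mice the same PT genes stood at 14.45, 14.17 and 17.07. Of the 19 PT markers, Slc22a6 was the lowest on the wild-type array and Slc7a8, at 14.68, the highest. In these whole preparations, more PT cells and more RNA for each PT cell cannot be told apart. These facts stand beside every difference below, and since there are only 2 arrays no result could be computed without them.

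Of the 48 ABC genes, 32 were measured, 28 of them on both arrays. In KAT5 KO mice 10 of the 32 were higher, 7 were lower and 15 lay within 2-fold. Over all 11635 measured genes, 17.8% were higher and 15.9% were lower, 33.7% in either direction, against 17 of the 32 members. The median difference of the 32 was 0.45, against -0.05 for all measured genes. Both ends were held by efflux pumps and lipid transporters. The 10 higher genes were Abcc2, Abcg2, Abcc4, Abca3, Abcd3, Abcb1a, Abcb1b, Abcd4, Abcb8 and Abcc10, from 8.70 for Abcc2 down to 1.05 for Abcc10. The 7 lower genes were Abca13, Abcc3, Abcg3, Abcc1, Abca9, Abcg1 and Abcd2, from -3.03 for Abca13 to -1.20 for Abcd2. The upper end lay farther out than the lower one, and Abcc2 was exceeded by only 17 measured genes and Abcg2 by 47, while 91 measured genes were lower than Abca13 and 130 were lower than Abcc3.

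**Figure D1:**
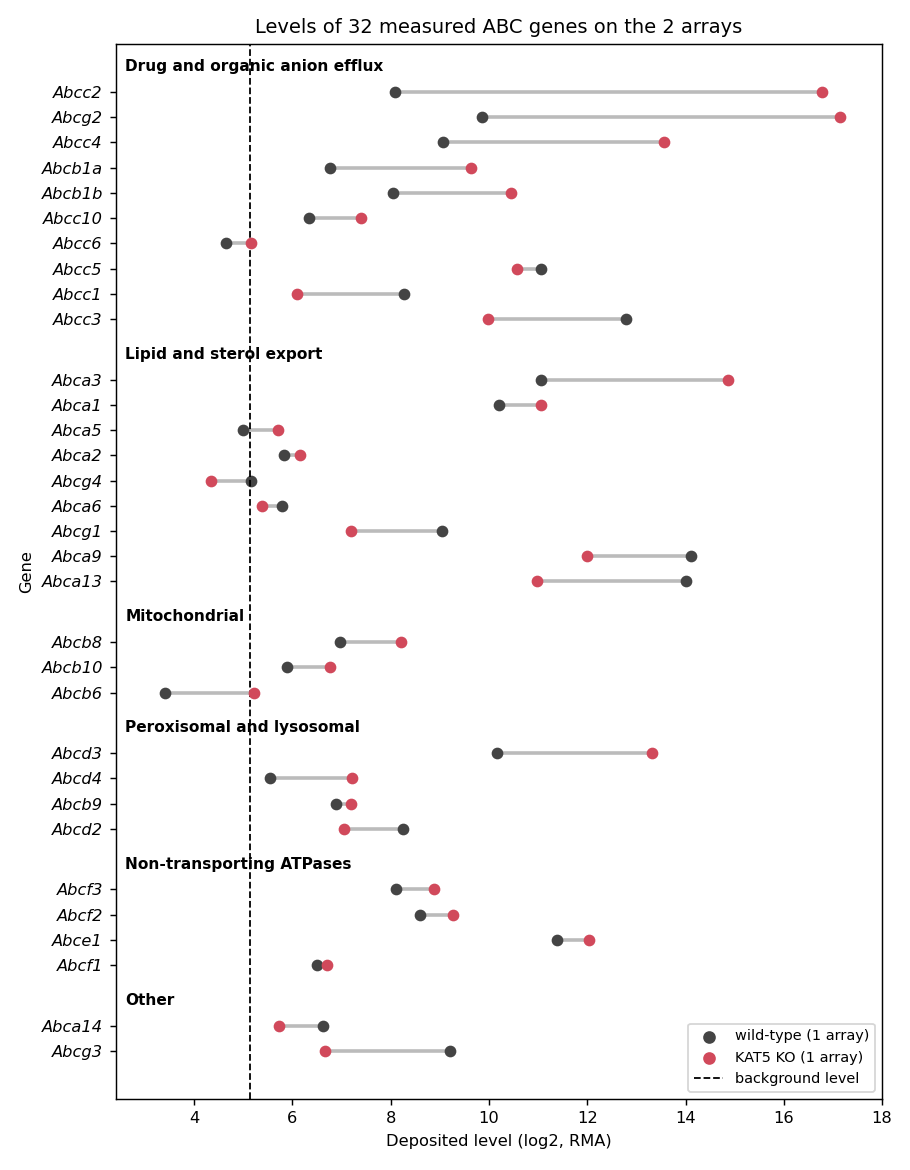
Deposited log2 level (horizontal axis) of each of the 32 measured ABC genes on the wild-type array (dark) and the KAT5 KO array (red), grouped by role, with the background level of 5.14 as a dashed line. Abcc2 and Abcg2 span the widest gaps, from 8.08 to 16.78 and from 9.85 to 17.14, whereas the non-transporting ATPases lie close together.

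**Figure D2:**
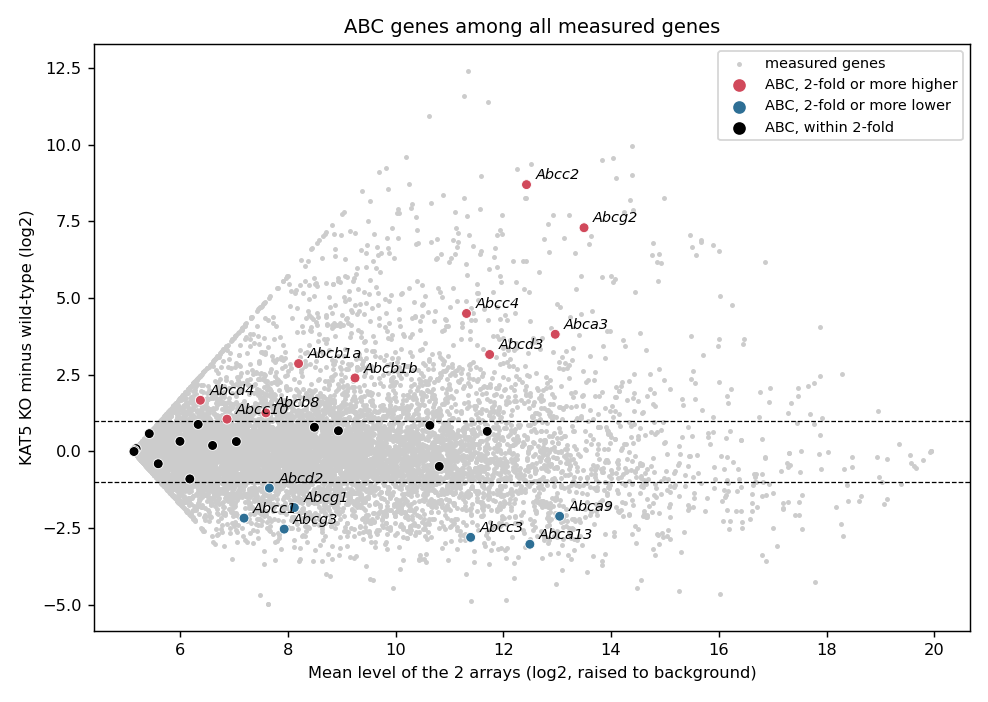
Difference between the arrays (KAT5 KO minus wild-type, log2, vertical axis) against the mean level of each of 11635 measured genes (grey), with the 32 ABC genes in colour and the 2-fold limits dashed. The 10 higher members (red) reach 8.70 and the 7 lower ones (blue) reach -3.03.

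Promoter sequence is shown for the ABC genes farthest apart in each direction, Abcc2 and Abcg2 on the higher side and Abca13 on the lower side, so that these can be read against each other. The windows hold the 250 bases before a transcription start in RefSeq (GRCm38.p6, + strand for all): chr19:43782058-43782307 for Abcc2, chr6:58584283-58584532 for the most upstream of the 3 starts of Abcg2, and chr11:9191692-9191941 for Abca13. Capitals mark exact matches, on either strand, to any of the following motifs: AGGTCA (the half-site of many nuclear receptors), TGACNNNGC (the core of the antioxidant response element), GTTAAT (a half-site of HNF1), CACGTG (the E-box) and TATAAA (the TATA box). A match to AGGTCA on the reverse strand can overlap one to TGACNNNGC.
Abcc2: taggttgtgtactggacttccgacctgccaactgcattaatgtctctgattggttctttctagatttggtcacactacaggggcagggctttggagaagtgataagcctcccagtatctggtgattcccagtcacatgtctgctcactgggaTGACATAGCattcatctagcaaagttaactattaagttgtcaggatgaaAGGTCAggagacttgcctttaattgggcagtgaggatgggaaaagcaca
Abcg2: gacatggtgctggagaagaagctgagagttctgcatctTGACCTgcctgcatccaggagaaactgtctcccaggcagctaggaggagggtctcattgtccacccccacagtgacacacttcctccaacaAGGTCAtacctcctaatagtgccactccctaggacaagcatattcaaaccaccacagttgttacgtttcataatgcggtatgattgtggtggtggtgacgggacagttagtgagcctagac
Abca13: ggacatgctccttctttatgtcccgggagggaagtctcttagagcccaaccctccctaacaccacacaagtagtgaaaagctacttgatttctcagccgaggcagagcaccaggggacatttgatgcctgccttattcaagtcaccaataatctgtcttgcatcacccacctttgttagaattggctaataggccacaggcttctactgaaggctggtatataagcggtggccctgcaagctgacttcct
The Abcc2 window holds TGACNNNGC with its first base 98 bases before the start and AGGTCA 49 bases before it. The Abcg2 window holds the nuclear receptor half-site at 212 bases, on the reverse strand, and at 121 bases. Of the other windows of Abcg2, which are not printed, the one before the middle start holds none of the motifs and the one before the most downstream start holds the half-site once. The Abca13 window holds no exact match to any of these motifs. It does hold tataag, which differs from TATAAA only in its last letter, and such near matches were not counted. Windows were found for 38 of the 48 genes, 45 windows in all, and AGGTCA occurred in 7 of the 45, or 15.6%, against 14.02% of all 32851 promoter windows. TGACNNNGC occurred in 4 of the 45, against 10.2% of all windows. The E-box occurred in 5 (6.02% of all windows), the TATA box in 5 (12.4%) and GTTAAT in 0 (6.43%). The ABC windows as a group thus held the first pair of motifs about as often as promoters at large, and a match in a window is a description of its letters only.

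The pumps of drugs and organic anions held the largest positive differences of the family and also Abcc3 and Abcc1, which were lower in KAT5 KO mice. Of 11 such genes 10 were measured, and 6 were higher, 2 were lower and 2 lay within 2-fold. Their median was 1.72, but it was 1.05 with no background level. Over all measured genes, 17.8% were higher and 15.9% were lower. Abcc2, which encodes MRP2, the brush border pump of glucuronide and glutathione conjugates, had a level of 8.08 in wild-type mice and 16.78 in KAT5 KO mice, a 415-fold difference. Abcg2, which encodes BCRP, a pump of sulfated conjugates and urate, went from 9.85 to 17.14, or 157-fold. Abcc4, which encodes MRP4, a pump of cyclic nucleotides, urate and other organic anions, stood at 9.07 and 13.56 (22.5-fold). These 3 pumps were the members with the largest positive differences.
P-glycoprotein, which expels many uncharged and cationic drugs, is encoded in mice by a pair of genes that lie next to each other. Abcb1a stood at 6.77 and 9.63 (7.27-fold) and Abcb1b at 8.05 and 10.44 (5.25-fold), so that both copies were higher in KAT5 KO mice. Their sequences are closely alike, and whether their probes tell them apart was not examined. Abcc10, which encodes MRP7, stood at 6.35 and 7.39, just past 2-fold with a difference of 1.05.
The opposite direction was found for Abcc3 and Abcc1. Abcc3, which encodes MRP3, a basolateral exporter of glucuronides and bile salts, stood at 12.80 in wild-type mice and 9.99 in KAT5 KO mice, a difference of -2.81. Abcc1, which encodes MRP1, a basolateral exporter of glutathione conjugates and leukotriene C4 found in many cell types, stood at 8.28 and 6.10, 4.53-fold lower. Abcc5, an exporter of cyclic nucleotides, differed by -0.49. Abcc6, the transporter that is deficient in pseudoxanthoma elasticum, was under the background level in wild-type mice and only just above it in KAT5 KO mice (5.16), which leaves its difference unread. Abcc12 was under the background level on both arrays.

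Markers of other cell types were lower in KAT5 KO mice, as Abcc3 and Abcc1 were. Of all measured genes, 15.9% were lower. In KAT5 KO mice 6 of 7 measured loop of Henle markers were lower (median -4.19), as were 3 of 4 of the distal convoluted tubule (-1.67), 4 of 6 of principal cells (-2.19), 5 of 6 of intercalated cells (-2.72), 4 of 7 of endothelial cells (-1.11), 3 of 4 of fibroblasts and mural cells (-1.76), 6 of 6 of macrophages (-1.95), 4 of 4 of lymphocytes (-2.21) and 1 of 3 of podocytes (-0.92). The summed linear level of these lists was lower by 2.09-fold for podocytes to at least 19.0-fold for the loop of Henle. There Umod was at the highest value of the table in wild-type mice. The sums used levels as deposited, not raised to the background level, and took in genes under it on both arrays. Markers of each of these cell types were above the background level on both arrays. Cldn10 was the exception in the loop of Henle, at 2.47 higher. The part of the mix of cells in the differences of the ABC genes was not tested. Of the 32 ABC genes, 2 (Abcc2 and Abcg2) lay above the median of the PT markers, and 4 (with Abcc4 and Abca3) reached the lowest of them.

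**Figure D3:**
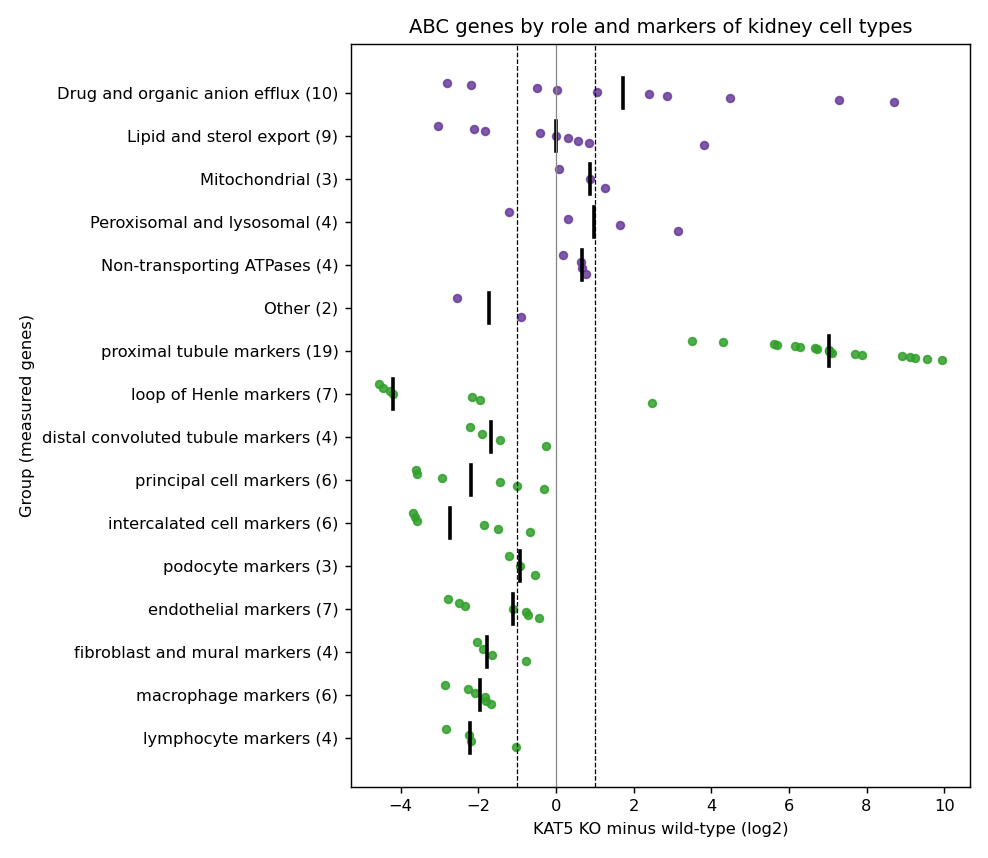
Difference between the arrays (KAT5 KO minus wild-type, log2, horizontal axis) of each measured ABC gene by role (purple) and of each measured marker of kidney cell types (green), with group medians as black bars, the number of measured genes in brackets and the 2-fold limits dashed. The PT markers lie between 3.51 and 9.95, and the medians of all other cell types are negative.

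The scaffold that holds apical transporters to the brush border was followed alongside the pumps. Of 6 listed genes of PDZ and ezrin-radixin-moesin proteins, all measured, 4 were higher, 1 was lower and the median was 1.76. Over all measured genes, 17.8% were higher and 15.9% were lower. Pdzk1, a scaffold that binds MRP2, was higher by 6.91 and Pdzk1ip1, a membrane partner of Pdzk1, by 4.77. Slc9a3r1, which encodes NHERF1, was higher by 2.09 and Ezr, which ties the scaffold to actin, by 1.43. Rdx, whose product holds MRP2 at the canalicular membrane of the mouse liver, differed by 0.07. Msn, the ERM protein prominent in endothelial and blood cells, was lower (-1.02).
Of 8 listed regulators of efflux pumps, 6 were measured. Of these, 4 were higher and 1 was lower (median 3.14), against 17.8% and 15.9% of all measured genes. Hnf4a, a factor that maintains PT and liver gene expression, was higher by 6.30, from 7.87 to 14.17. Ppara, the fatty acid receptor, was higher by 5.43 and Nr1h4, which encodes the bile acid receptor FXR, by 5.06. Nr1i2, which encodes the xenobiotic receptor PXR, was under the background level in wild-type mice and at 6.37 in KAT5 KO mice, at least 2.35-fold higher. Nfe2l2, which encodes NRF2, the factor that binds the antioxidant response element, was lower (-1.42), while Ahr differed by -0.04.

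The transporters of lipids and sterols went in both directions. Of 18 genes 9 were measured, and 1 was higher, 3 were lower and 5 lay within 2-fold (median -0.01). That is 11.1% higher and 33.3% lower of only 9 genes, against 17.8% and 15.9% of all measured genes. The median is the difference of Abcg4, whose level in KAT5 KO mice was raised to the background level. With no background level the median of the group was -0.16. Abca3, best known for loading phospholipid into the lamellar bodies of alveolar type II cells, had a level of 11.05 in wild-type mice and 14.87 in KAT5 KO mice (14.1-fold). Abca13, which encodes one of the longest ABC proteins, stood at 14.01 and 10.98, 8.18-fold lower. Abca9, whose human counterpart is expressed in macrophages, stood at 14.10 and 11.99, 4.34-fold lower.
Abcg1, which passes cholesterol to high-density lipoprotein and is prominent in macrophages, stood at 9.04 and 7.20, 3.57-fold lower. Abca1, which passes cholesterol and phospholipid to lipid-poor apolipoprotein A-I, went the other way and stayed within 2-fold, at 10.21 and 11.06. The 2 sterol exporters that share a regulator, the liver X receptor, therefore differed in sign on these arrays. The 6 measured macrophage markers lay between -2.84 and -1.67.
Abca2 differed by 0.32 and Abca6 by -0.41. Abca5 was above the background level only in KAT5 KO mice (5.71) and Abcg4 only in wild-type mice (5.15), the latter by less than 0.01. The biliary sterol pair Abcg5 and Abcg8, the bile salt pump Abcb11, the phosphatidylcholine floppase Abcb4 and the retinal transporter Abca4 were under the background level on both arrays, as were Abca7, Abca8a, Abca8b and Abca12.

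Other genes of sterol handling lay on both sides. Of 16 listed genes 10 were measured, with 3 higher, 3 lower and a median of -0.48. Over all measured genes the shares were 17.8% higher and 15.9% lower. Apob, the apolipoprotein of secreted lipoproteins, was higher by 6.51, Nr1h3, which encodes the liver X receptor alpha, by 2.56, and its partner Rxra by 1.29. Scarb1, the receptor for high-density lipoprotein, and Npc2, which carries cholesterol in the lysosome, both differed by -1.82, and Mylip, which marks the LDL receptor for breakdown, by -1.64. Apoe was at 19.93 on both arrays, the highest value of the table, so no difference can be read for it.

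Of the ABC transporters of mitochondria, 3 had a probe set here. Abcb8, an inner membrane transporter linked to iron export, stood at 6.96 in wild-type mice and 8.22 in KAT5 KO mice (2.38-fold). Abcb10, which acts in haem synthesis, stood at 5.90 and 6.77, within 2-fold. Abcb6, linked to porphyrin transport, was under the background level in wild-type mice and at 5.23 in KAT5 KO mice, too near that level for a difference to be read.
Of 15 listed partners in the making of iron-sulfur clusters and haem, 12 were measured. Of these, 7 were higher and 0 were lower (median 1.10), against 17.8% and 15.9% of all measured genes. Glrx5, which passes on iron-sulfur clusters, was higher by 2.33, and Nfs1, which provides their sulfur, by 1.83. Alas1, the first enzyme of haem synthesis, was higher by 2.06, Cpox by 2.19 and Fech, the last enzyme, by 1.42. Slc25a37, the iron importer mitoferrin 1, differed by -0.55.

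In peroxisomes and lysosomes, members of the D subfamily went in both directions. Abcd3, which encodes PMP70, an importer of branched-chain and dicarboxylic acyl-CoA and of bile acid precursors, stood at 10.17 in wild-type mice and 13.32 in KAT5 KO mice (8.92-fold). Abcd2, an importer of very-long-chain acyl-CoA, stood at 8.26 and 7.06, 2.30-fold lower. Abcd4, which exports cobalamin (vitamin B12) from the lysosome, stood at 5.54 and 7.21 (3.17-fold). Abcb9, a peptide transporter of the lysosome, differed by 0.32.
Of 11 listed peroxisomal partners 10 were measured. Of these, 8 were higher and 0 were lower (median 2.03), against 17.8% and 15.9% of all measured genes. Slc27a2, which activates very-long-chain fatty acids and is also a PT marker, was higher by 7.88. Ehhadh, the bifunctional enzyme that handles dicarboxylic acids, was higher by 5.32, Scp2, the thiolase and carrier of branched chains, by 3.92, and Hsd17b4 by 1.85. Pex19, which delivers PMP70 to the peroxisomal membrane, differed by -0.83, and Pex3, its docking partner, was higher by 1.12.
Of 7 genes of cobalamin handling, all measured, 4 were higher and 0 were lower (median 1.04). The shares over all measured genes were 17.8% and 15.9%. Cubn and Amn, the subunits of the receptor complex cubam, were higher by 7.70 and 2.48, and the carrier transcobalamin, Tcn2, by 5.07. Lmbrd1, which encodes the lysosomal partner of Abcd4, stood at 12.87 and 12.76, a difference of -0.11, whereas Abcd4 itself was higher.

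The ABC proteins without membrane domains lay within 2-fold between the arrays, all on the higher side in KAT5 KO mice. Of the 4 genes, all measured on both arrays, 0 passed 2-fold, and their differences ran from 0.19 to 0.78. Their median was 0.66, against 0.45 for all measured ABC genes. Abce1, which splits ribosomes after termination, stood at 11.38 in wild-type mice and 12.03 in KAT5 KO mice. Abcf1, which acts in translation initiation, stood at 6.51 and 6.70, Abcf2 at 8.60 and 9.27 and Abcf3 at 8.10 and 8.88. Of 10 listed partners in ribosome recycling and translation 6 were measured. Of these, 1 (Gspt1, a release factor, by 1.07) was higher and 0 were lower (median 0.25). That is 16.7% higher, near the 17.8% of all measured genes, of which 15.9% were lower. The release factor Etf1 differed by 0.41.

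**Figure D4:**
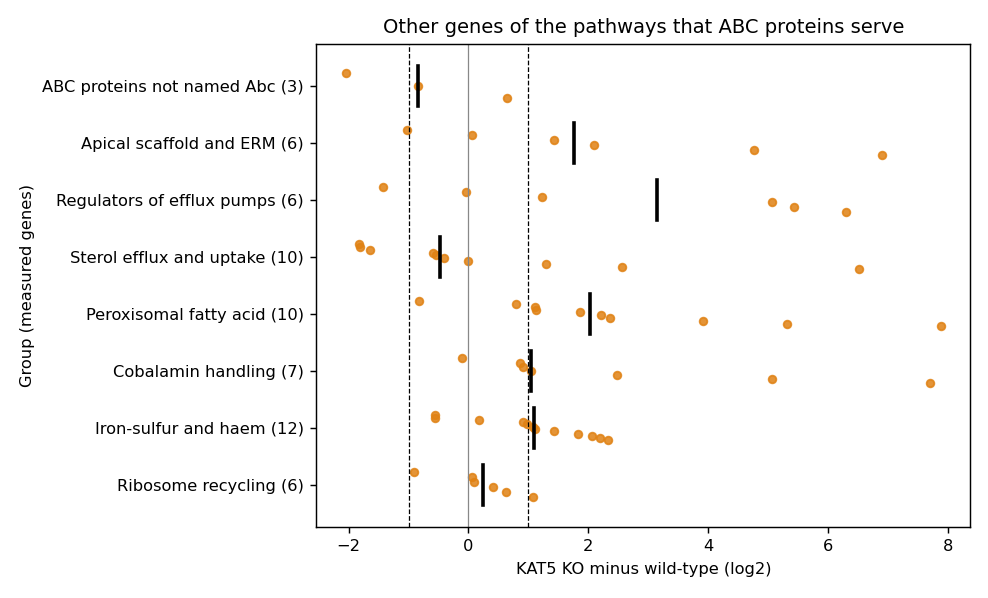
Difference between the arrays (KAT5 KO minus wild-type, log2, horizontal axis) of the measured genes in 8 lists of ABC proteins with other names and of partners of the ABC proteins, with list medians as black bars, the number of measured genes in brackets and the 2-fold limits dashed. Apoe in the sterol list is drawn at 0.00 although both arrays are at the highest value of the table.

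Of the members with no role assigned here, Abcg3, a gene found in rodents and related to Abcg2, stood at 9.20 in wild-type mice and 6.66 in KAT5 KO mice, 5.81-fold lower, in the opposite direction to Abcg2. Abca14 stood at 6.63 and 5.73, within 2-fold. Abca15, Abca16, Abca17 and Abcb5 were under the background level on both arrays. The sulfonylurea receptors Abcc8 and Abcc9, regulatory subunits of ATP-sensitive potassium channels, were under it as well, together with the pores they pair with, Kcnj11 and Kcnj8. By the same rule 16 of the 48 genes were not measured. ABC proteins with other names were listed for comparison. Tap1 and Tap2, which load peptides for antigen presentation, differed by -2.04 and -0.84, and the chloride channel Cftr by 0.64.

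By subfamily, the share of measured members that were higher ran from 3 of 6 in B, 3 of 7 in C and 2 of 3 in D to 1 of 8 in A and 1 of 4 in G, with none in E and F, against 17.8% of all measured genes. Lower members were 2 of 8 in A, 2 of 7 in C, 1 of 3 in D and 2 of 4 in G, and 0 of 6 in B, against 15.9%. With so few members in each, several of these shares lie near those of all genes. The G subfamily thus held both Abcg2 and the lower Abcg1 and Abcg3, and the C subfamily held both Abcc2 and the lower Abcc3.

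**Figure D5:**
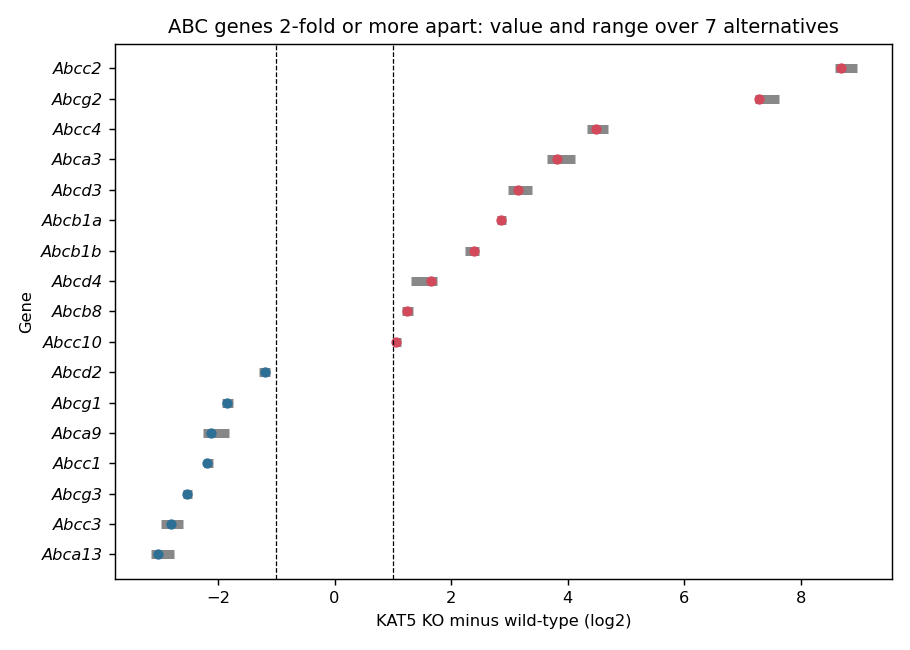
Difference between the arrays (KAT5 KO minus wild-type, log2, horizontal axis) of the 17 ABC genes 2-fold or more apart (points, red higher and blue lower) with the range over 7 other ways of processing (grey bars) and the 2-fold limits dashed. Each of the 17 stayed on its side of the 2-fold limit under the alternatives run for it. Abcc10 lay nearest to that limit, from 1.04 to 1.14. Except for Abcd4, the background and probe set alternatives could not change these values. The genes exceeded each background level tried, and each had 1 probe set.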

How the data were processed

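Preparations labelled as PT cells, of wild-type mice and of KAT5 KO mice, were measured on 1 Clariom S mouse array each, from 64 ng of RNA. Per the labels, the authors used RMA in the Transcriptome Analysis Console (versions not given in the sources used here), and they deposited log2 levels of 28846 probe sets. These were used as deposited. The platform annotation gave a gene symbol for 19572 of them, covering 19505 genes. Each ABC gene had 1 probe set. All 48 symbols were found in RefSeq.

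To set the background level, the 95th percentile was taken over 1465 receptor genes on each array, and the larger value was used. Differences of genes above it on 1 array only are lower bounds. RMA scales the arrays against each other, so a level is relative to the other probe sets of its array. The members, role groups and lists of partners and markers were chosen with earlier results of these data known. Every measured member was named, with both levels where 2-fold or more apart. Other genes came from the lists. The number of arrays limits the precision, and no replicates, p-values or errors could be computed.

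Alternatives were other scalings (median centring, quantile normalization, loess with span 0.3), background levels, probe set summaries and thresholds. The steps were tested on simulated arrays. Python 3.11.15 with numpy 2.4.6, pandas 2.3.3, statsmodels 0.14.6 and matplotlib 3.10.9 was used.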

Additional observations from a re-analysis of the deposited data

How the results depend on the processing

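The counts of 10 higher and 7 lower ABC genes stayed within 1.5 times under every alternative run for them. They were 10 or 11 and 7 under the 3 further scalings and the 3 other background settings. Over all genes measured in these settings, the higher share ran from 12.03% (no background level) to 19.1% (loess trend removed). The lower share ran from 12.6% (no background level) to 17.5% (quantile normalization). The counts were 15 and 8 at 1.5-fold, and 8 and 6 at 3-fold. The shares of all genes at those thresholds were not computed, so these counts have no comparison. The median difference of the measured members (0.45) became -0.039 with no background level, where all 48 members enter and the median of all genes is -0.11. Under the other alternatives it lay between 0.42 and 0.77. Removing the loess trend moved the median of all measured genes from -0.05 to 0.05, and against that shift the median of the members was 0.57. The median of the lipid and sterol transporters, -0.01, became 0.0011 with the loess trend removed. At the 99th percentile of the receptor genes it was -0.79. The median of the drug and organic anion pumps, 1.72, became 2.39 at that percentile and at a background level from the median of all probe sets, and 1.05 with no background level. Each of the 17 members 2-fold or more apart kept its call, although for all but Abcd4 only the 3 scalings could change the value. Of the 15 within 2-fold, 13 kept their call under the alternatives in which they were measured. Abca1 reached 2-fold with the loess trend removed and Abcb6 reached 1.83 with no background level. No paired analysis was possible because there is 1 array for each genotype and the labels give no replicate numbers. No array could be left out for the same reason.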

Other observations

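Many ABC genes that neighbour each other in RefSeq could not be compared, since genes under the background level on both arrays have no direction. Only for Abcb1a and Abcb1b were both neighbours 2-fold or more apart between the arrays. Abcb1a and Abcb1b, with no protein-coding gene between them, were both higher in KAT5 KO mice (2.86 and 2.39), while Abcb4, the next gene, was under the background level on both arrays. In the row of A subfamily genes on chromosome 11, Abca9 was lower (-2.12), Abca6 differed by -0.41, Abca5 was above the background level only in KAT5 KO mice, and Abca8a and Abca8b were under it on both arrays. Abca3 was higher by 3.82 beside Abca17, which was under the background level. Of the row Abca14, Abca15 and Abca16 on chromosome 7, only Abca14 exceeded that level (-0.90). Such rows arose by duplication, and whether probes tell their members apart was not examined.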
